A study of Mus musculus with 15 samples.

Results

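The genes described here are the autosomal protein-coding genes of the mouse whose RefSeq span on GRCm38.p6, end minus start, is at least 500 kb. The rule used length alone and took 216 of 20665 autosomal protein-coding genes, or 1.05%. Their spans ran from 502 kb to 2271 kb with a median of 735 kb, 55 of them reached 1 Mb, and they lay on all 19 autosomes. Because 5 members overlapped another member they formed 213 loci, and together these covered 180 Mb of the 984 Mb under all autosomal protein-coding genes (18.3%).

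Chromatin was profiled in EL4 cells, a murine T lymphoblast line of C57BL/6N origin derived from a T cell lymphoma. ChIP-seq was done on fixed, untreated cells for H3K27me3, H3K36me2, H3K4me3, H3K9ac and H3K27ac, and ATAC-seq on untreated cells of the line, with 2 replicates of each. Every group is thus the same wild-type line with no treatment, it is a single transformed line and no model of primary T cells, and the replicates are described as technical, so that the spread between them may be technical. The deposited values are the positions of called intervals with no height or score, so the depth behind each interval is unknown.

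H3K27me3 is laid down by Polycomb repressive complex 2 and can spread over long silent regions. H3K36me2 is deposited by the NSD enzymes and ASH1L, forms broad domains in genes and between them, and hinders Polycomb methylation on the histone tails that carry it. H3K4me3 marks promoters, H3K9ac and H3K27ac mark active promoters and enhancers, and ATAC-seq reads open DNA. Very long genes are known for synaptic and cell adhesion proteins and for common fragile sites, regions that break when replication is slowed.

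The T lineage label was checked at marker genes. H3K4me3 lay at the start of 6 of 7 T lineage markers in both replicates, with Cd247 as the exception, and at 0 of 5 B lineage and 0 of 4 myeloid markers. Of 4 neuronal markers only Tubb3 had it. The autosomal sets held from 17101 to 45491 intervals per library and covered from 8.31 Mb (ATAC-seq) to 304 Mb (H3K36me2).

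Promoter sequences show how the start of a long gene can differ from a promoter inside it, a point to which the results return. Nav2, a cytoskeletal protein of growing neurites, and Celf2, an RNA-binding splicing regulator, had H3K27me3 at the annotated start and H3K4me3 in both replicates at an internal promoter. Dock2, the exchange factor that activates Rac in lymphocytes, had H3K4me3 at its start. Each RefSeq sequence below is the 250 bases before the start site on GRCm38.p6, 5′ to 3′, in lower case with every CG dinucleotide in capitals. The windows are chr7:48958823-48959072, plus strand (Nav2 start), chr7:49245939-49246188, plus strand (Nav2 internal), chr2:7396199-7396448, minus strand (Celf2 start), chr2:6872036-6872285, minus strand (Celf2 internal) and chr11:34783906-34784155, minus strand (Dock2 start).
Nav2 start: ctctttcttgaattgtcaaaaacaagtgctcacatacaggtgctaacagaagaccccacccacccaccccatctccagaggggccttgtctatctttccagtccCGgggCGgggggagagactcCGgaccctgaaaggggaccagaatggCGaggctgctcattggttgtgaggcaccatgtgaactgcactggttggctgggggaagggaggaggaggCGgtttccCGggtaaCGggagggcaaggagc
Nav2 internal: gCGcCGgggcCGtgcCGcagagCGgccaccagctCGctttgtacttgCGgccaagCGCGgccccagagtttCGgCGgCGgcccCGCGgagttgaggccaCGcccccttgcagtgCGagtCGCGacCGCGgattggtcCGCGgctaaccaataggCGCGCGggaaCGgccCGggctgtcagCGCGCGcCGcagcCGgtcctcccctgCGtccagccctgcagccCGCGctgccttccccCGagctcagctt
Celf2 start: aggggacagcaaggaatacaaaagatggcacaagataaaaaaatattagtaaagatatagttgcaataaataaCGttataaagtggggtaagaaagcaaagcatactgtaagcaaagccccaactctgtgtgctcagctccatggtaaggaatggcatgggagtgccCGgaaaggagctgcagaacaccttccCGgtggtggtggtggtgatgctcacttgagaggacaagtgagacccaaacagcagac
Celf2 internal: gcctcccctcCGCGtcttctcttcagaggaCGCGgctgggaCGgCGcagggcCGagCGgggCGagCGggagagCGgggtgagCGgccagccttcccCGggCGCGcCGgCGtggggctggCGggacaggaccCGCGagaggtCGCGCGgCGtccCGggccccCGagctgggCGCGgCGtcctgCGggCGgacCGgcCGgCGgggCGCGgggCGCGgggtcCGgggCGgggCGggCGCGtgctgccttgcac
Dock2 start: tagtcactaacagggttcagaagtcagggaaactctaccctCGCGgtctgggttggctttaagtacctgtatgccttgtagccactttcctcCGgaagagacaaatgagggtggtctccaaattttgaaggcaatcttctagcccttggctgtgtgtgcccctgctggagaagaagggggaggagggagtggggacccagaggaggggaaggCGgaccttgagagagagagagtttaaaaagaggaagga
The Nav2 start window held 7 CG and the internal window, 287 kb downstream, held 36. For Celf2 the counts were 3 at the start and 43 at the internal promoter 524 kb downstream. The active Dock2 start held only 4, so CG count and H3K4me3 did not go together in these 5 windows. The CG-rich internal windows of Nav2 and Celf2 were not typical: over 300 bases the 124 internal member promoters had a median of 7 CG, the 12 of them with H3K4me3 in both replicates had a median of 8.5, and the other active internal promoter of Celf2, at 675 kb, held 8. Over the 300 bases around all 271 member promoters the median was 12 CG, against 14 for all 20085 autosomal protein-coding promoters in the table. The motif CG, which reads the same on both strands, was present in 95.6% of all promoters, and 15 or more copies were present in 48.1% of all promoters and 42.4% of member promoters. Member promoters with H3K4me3 in both replicates held from 2 to 48 CG (median 13, 39 promoters) and those with none held from 0 to 57 (median 12, 231 promoters), so the ranges overlapped.

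The first comparison asked how much of the long genes each broad mark covered. H3K27me3 intervals covered 11.3% of the summed span in replicate 1 and 12.9% in replicate 2, a mean of 12.1% ± 1.12 (SD, n = 2). H3K36me2 covered 5.52% and 5.49%, a mean of 5.51% ± 0.0207 (SD, n = 2). Both H3K27me3 values lay above both H3K36me2 values, with a difference of 6.60 percentage points and a ratio of 2.20. The two-sided exact permutation p was 0.333, the smallest that 2 against 2 libraries allow, so no such comparison here could reach 0.05.

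Shorter genes had another order of the marks. In the 19720 genes under 200 kb, H3K27me3 covered 8.43% and 9.81% and H3K36me2 covered 31.8% and 31.5%. In the 729 genes from 200 to 500 kb the marks were closer, with 14.5% and 16.6% for H3K27me3 and 17.1% and 17.2% for H3K36me2. H3K36me2 coverage of the long genes was lower than that of genes under 200 kb by 26.1 percentage points and lower than that of the middle class by 11.7, with no overlap of the replicates (exact permutation p = 0.333 each). H3K27me3 coverage of the long genes was 2.98 percentage points above genes under 200 kb and 3.45 below the middle class. Again there was no overlap (exact permutation p = 0.333 each). This test took the values as separate libraries, although both length classes of a comparison came from the same 2 libraries. With the replicate number as a block, the exact p was 0.5 for each of these differences, the smallest that 2 pairs allow. The excess over genes under 200 kb depended on the length limit: in the 55 members of at least 1 Mb H3K27me3 covered 8.95% and 10.0%, only 0.360 percentage points more on average, and these values overlapped with those of genes under 200 kb.

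**Figure D1:**
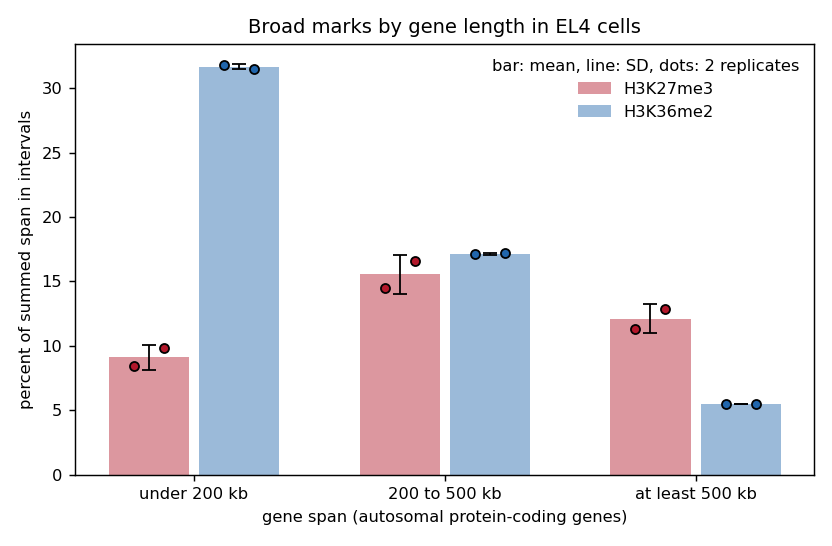
Percent of the summed gene span inside H3K27me3 (red) and H3K36me2 (blue) intervals for 3 classes of gene length. Bars are means, lines the SD and dots the 2 replicates; H3K36me2 falls from a mean of 31.7% in genes under 200 kb to 5.51% in genes of at least 500 kb, while H3K27me3 stays between 9.12% and 15.6%.

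Coverage was very uneven among the long genes. The median member had 2.06% and 2.45% of its span in H3K27me3 and 0% in H3K36me2 in each replicate. H3K27me3 was at 0 in 77 and 85 members and H3K36me2 in 131 and 132. At least 50% of the span lay in H3K27me3 in 16 and 22 of the 216 members, against 1555 and 1864 of all 20665 genes. That much H3K36me2 was found in 8 members in each replicate, against 6334 and 6265 of all genes. The members at 0 were 35.6% and 39.4% for H3K27me3, where 80.0% and 79.8% of all genes had none, and 60.6% and 61.1% for H3K36me2, against 51.1% and 51.0% of all genes. The replicates ranked the members alike (Pearson r across the 216 genes 0.992 for H3K27me3 and 0.995 for H3K36me2, a description, since genes are not independent replicates). At base level they overlapped less, with a shared length of 0.484 of the joined length for H3K27me3 and 0.495 for H3K36me2. The largest difference between replicates was in Dlgap2, a postsynaptic scaffold gene, with 35.1% and 50.7% H3K27me3.

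A mark was called leading where both of its replicates reached 5% of the span and exceeded both replicates of the other mark. H3K27me3 led in 82 members, or 38.0%, where the same rule called 14.4% of all autosomal protein-coding genes. H3K36me2 led in 31 members, or 14.4%, against 42% of all genes. All 4 libraries were under 5% in 93 members, or 43.1%, against 30.1% of all genes, and the remaining 10 members met none of these rules. The leading-mark shares of the long genes thus lay away from the background, toward H3K27me3 and toward low coverage by either mark. The shift toward H3K27me3 was not particular to them, since it led in 36.4% of genes from 200 to 500 kb. In that class H3K36me2 led in 34.7% and 22.8% were low in both.

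The members with the highest H3K27me3 coverage were Pard3b, Pard3, Spag16, Ptprk and Grm8. Pard3b and Pard3 encode partitioning-defective polarity proteins; Pard3b (chr1:61638667-62642284) was covered over 84.0% and 84.7% of its 1004 kb, and Pard3 over 71.0% and 78.4%. Spag16, a protein of the sperm axoneme, had 70.9% and 75.8%, and Grm8, a metabotropic glutamate receptor, had 62.8% and 67.1%. Pard3b, Spag16 and Grm8 had no H3K36me2 interval and no H3K4me3, H3K27ac or ATAC-seq interval inside in either replicate. Ptprk, a receptor tyrosine phosphatase, had 69.4% and 68.4% H3K27me3 and also 12.0% and 14.0% H3K36me2.

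The members with the highest H3K36me2 coverage were Zfhx3, Vps13b, Foxp1, Dlgap1 and Dock2, and none of them had an H3K27me3 interval in either replicate. Zfhx3, a zinc finger homeobox transcription factor (chr8:108279311-108961636), was covered over 84.1% and 83.0% of its 682 kb. Vps13b, a lipid transfer protein of the Golgi, had 79.6% and 79.5%. Foxp1, a forkhead factor needed in lymphocyte development, had 77.0% and 67.8%, the largest replicate difference for this mark at 9.27 percentage points. Dlgap1, a postsynaptic scaffold gene, had 71.4% and 66.3%, and Dock2 had 64.7% and 66.6%. High H3K36me2 was therefore found over genes with lymphocyte roles and also over a gene known from synapses.

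**Figure D2:**
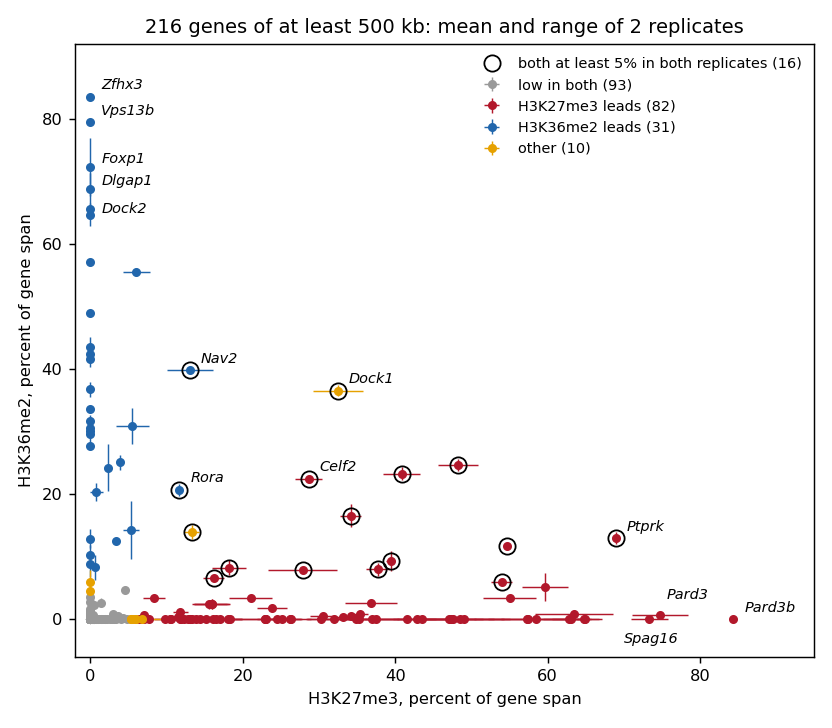
Percent of span in H3K27me3 (x axis) against H3K36me2 (y axis) for the 216 genes, with dots at the mean of 2 replicates and lines to each replicate. Most genes lie on 1 of the 2 axes or at the origin, and the 16 circled genes have at least 5% of both marks in both replicates.

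The longest members were mostly low in both marks. Ptprd, a synaptic receptor phosphatase and the longest at 2271 kb, had 0% H3K27me3 in both replicates and at most 0.0704% H3K36me2. Lsamp, Lrp1b and Macrod2 had at most 2.12% H3K27me3. Cntnap2, a neurexin family member of 2241 kb, differed from these with 24.6% and 27.7% H3K27me3 and no H3K36me2. No narrow interval (H3K4me3, H3K9ac, H3K27ac or ATAC-seq) was found in either replicate in 98 members. The longest of these were Ptprd, Cntnap2, Lrp1b, Macrod2 and Csmd1. The same count was not made for shorter genes, so it gives no comparison with them.

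The length limit cut through a continuum. Just above it, Edil3 had 0% H3K27me3 and 30.0% and 31.1% H3K36me2, Dock1 had 29.3% and 35.7% H3K27me3 with 37.4% and 35.7% H3K36me2, and Samd12 had 3.89% and 9.53% H3K27me3. Just below it, Dnm3 had 69.0% and 68.4% H3K27me3, Cacna1e had 53.3% and 60.4%, and Lrrc7 had neither mark.

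Known gene groups were spread over the classes. Of 62 listed synaptic adhesion and receptor genes, 53 were members; H3K27me3 led in 19 (35.8%, near the 38.0% of all members), H3K36me2 in 2 (3.77%, against 14.4% of all members), and 31 were low in both (58.5% against 43.1%). Of 19 common fragile site genes, 18 were members; H3K27me3 led in 4 (22.2%), H3K36me2 in 3 (16.7%) and 10 were low in both (55.6%). Of 45 genes with known use in lymphocytes or in most cells, 16 were members; H3K36me2 led in 10 (62.5%), H3K27me3 in 4 (Zbtb20, Rabgap1l, Ptprk and Nbea) and 2 were low in both. H3K36me2 led in 14.4% of all members and in 42% of all autosomal protein-coding genes. The median H3K36me2 coverage was 35.2% over these 16 genes and 0% over all members. This list mixes lymphocyte genes with genes used in most cells. The lists were chosen with earlier results of these data known, so the shares describe them and test nothing.

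The next comparison asked whether active marks and open DNA lay at the ends of the long genes. A window ran from 3 kb outside to 2 kb inside the start end, and both ends were used for the 47 members whose strand was not in the promoter table. H3K4me3 lay there in both replicates in 33 members, or 15.3%, against 45.7% of all genes. H3K9ac was there in 32 members (background 45%), H3K27ac in 33 (45.4%) and ATAC-seq in 27 (40.8%). All 4 sets were present in 27 members, or 12.5%, against 27.6% of genes from 200 to 500 kb and 40.8% of genes under 200 kb. None was present in either replicate in 181 members, or 83.8%, against 67.6% and 51.3% in these classes. H3K27me3 lay at the start end of 28 members, or 13.0%, near the 11.1% of all genes, and H3K36me2 at 17 (background 28.4%). At the far end, in the 169 members with strand, H3K4me3 was found in 8 (background 11.1% of all genes with strand), H3K9ac in 7 (10.6%), H3K27ac in 7 (12%) and ATAC-seq in 5 (8.57%). As shares of the members these were 4.73%, 4.14%, 4.14% and 2.96%, each under its background. In genes from 200 to 500 kb with strand the shares were 2.97%, 2.97%, 3.35% and 2.97%. Low shares at the far end were thus not particular to the long genes.

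The share of active starts differed between the classes of leading mark. Of the 31 members led by H3K36me2, 19 had H3K4me3 at the start end in both replicates, 19 had H3K27ac and 16 had ATAC-seq. Of the 82 led by H3K27me3, 3 had each of these sets, among them Dlg2, a synaptic scaffold gene. Of the 93 low in both, 10 had H3K4me3 at the start end, among them Immp2l, Cdkal1, Lpp, Magi1 and Ctnna3. A start with active marks was thus also found in long genes whose span carried almost no broad mark. Lpp, an adhesion plaque protein, had H3K4me3, H3K9ac and H3K27ac at its start in both replicates and ATAC-seq in neither, with 0.334% and 0.867% H3K36me2 and no H3K27me3.

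Inside the gene, more than 2 kb from either end, H3K4me3 was found in both replicates in 92 members, or 42.6%, against 12.2% of all genes. H3K9ac was found in 77 (background 11.7%), H3K27ac in 83 (14.8%) and ATAC-seq in 78 (11.8%). These shares depend on the length searched. In genes from 200 to 500 kb they were 42.2%, 36.4%, 42.8% and 39.8%, so high shares were not particular to the long genes. In genes under 200 kb they were 10.8%, 10.6%, 13.5% and 10.5%, each below that of the long genes. Per Mb the order was the reverse: H3K27ac had 3.57 and 3.81 intervals per Mb inside the long genes and 14.0 and 14.3 in genes under 200 kb, and H3K4me3 had 2.08 and 1.97 against 7.04 and 6.63. Overlapping members share intervals, 3 members of 1 locus on chromosome 18 among them. Counted once, the intervals came to 3.50 and 3.72 per Mb for H3K27ac and 1.96 and 1.89 for H3K4me3, and the 10 richest of the 213 loci held from 35.8% to 40% of them, depending on the set and replicate.

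Density inside also differed by leading mark. H3K27ac had 15.3 and 16.0 intervals per Mb in the members led by H3K36me2. Genes under 200 kb, taken whatever their leading mark, had 14.0 and 14.3, and those led by H3K36me2 were not counted apart. It had 2.77 and 2.83 per Mb in those led by H3K27me3 (2.51 and 2.54 with shared intervals counted once) and 1.29 and 1.52 per Mb in those low in both. ATAC-seq had the same order, with 6.14 and 6.93, 1.06 and 1.30, and 0.384 and 0.570 per Mb. For both sets the replicates of a class lay apart from those of the other classes. Most of the 16 genes with both broad marks, described below, were led by H3K27me3. Whatever their leading mark, these 16 genes had 12.7 and 12.4 H3K27ac and 4.46 and 5.42 ATAC-seq intervals per Mb inside. The density of the members led by H3K27me3 was not computed without them. Its place above that of the members low in both may therefore rest on these genes.

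**Figure D3:**
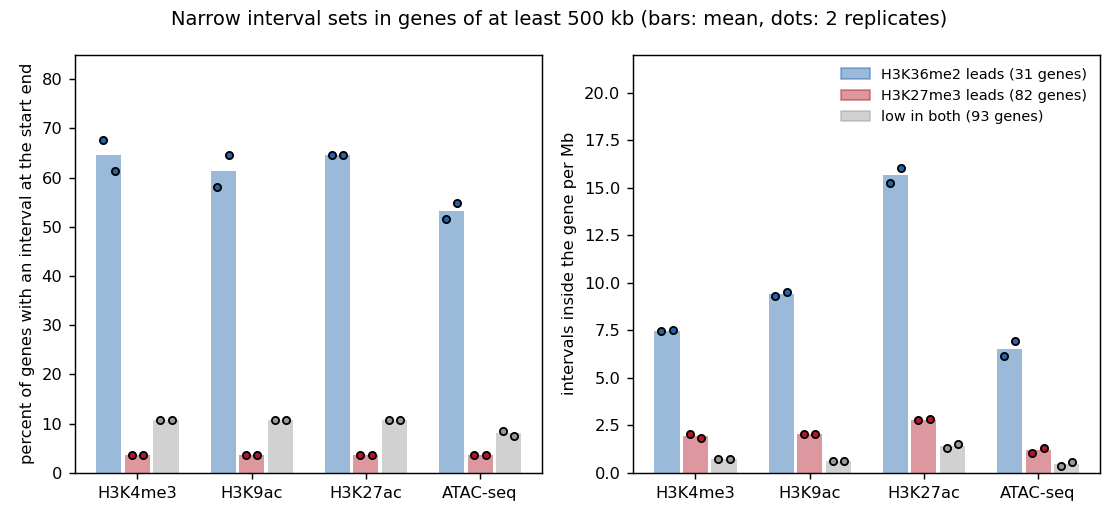
Percent of genes with a narrow interval at the start end (left) and intervals inside the gene per Mb (right), by leading broad mark; bars are means and dots the 2 replicates. Members led by H3K36me2 stand above the other classes in all 4 sets, and H3K27ac inside them reaches 15.3 and 16.0 intervals per Mb.

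The richest genes in H3K27ac were Immp2l with 33 and 36 intervals inside, Foxp1 with 30 and 31, Arhgap26 with 29 and 31, Pde4d with 25 and 28 and Exoc4 with 22 and 28. Immp2l, a mitochondrial inner membrane peptidase, stood apart in having only 1.48% and 1.70% H3K36me2 and no H3K27me3. All of its 33 and 36 intervals lay outside the end windows of other protein-coding genes, including Lrrn3 within it. Foxp1 and Exoc4, an exocyst subunit, also had H3K4me3 at the start end, and Arhgap26, whose strand was not known, had it at an end. Pde4d, a cAMP phosphodiesterase, lacked it at the start end but had all 4 narrow sets at the far end in both replicates. The opposite arrangement was seen in Dock2, Arhgap15 and Vps13b. They had broad H3K36me2 and H3K4me3 at the start end, or at an end for Vps13b, whose strand was not known. None had H3K4me3 inside, and of H3K27ac inside there was only 1 interval, in replicate 2 of Vps13b.

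Some of these intervals lay at internal promoters. The promoter table listed 124 internal promoters in 77 members, and 12 of them, in 9 members, had H3K4me3 in both replicates. This is 9.68%, against 36% of the 3120 internal promoters of all genes, and 27 of the other 147 member promoters had it (18.4%), against 49% for all genes. In 8 members H3K4me3 was found in both replicates only at internal promoters. Of these, Celf2, Nav2, Fhit and Frmd4a had a listed promoter at the start, which lacked it. Cdh12, Mctp1, Ntm and Pde4b had only internal promoters listed, so their start could not be compared. Foxp1 had it at its start and at promoters 256 kb and 494 kb downstream. In Ntm, an immunoglobulin family adhesion protein led by H3K27me3 with 43.7% and 54.3%, a pair of promoters about 550 kb downstream had both H3K4me3 and H3K27me3 and neither acetyl mark.

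The last comparison took the genes where the broad marks alternate. Both marks covered at least 5% of the span in both replicates in 16 members, or 7.41%, against 0.808% of all genes. The share was 3.57% in genes from 200 to 500 kb and 0.634% in genes under 200 kb. They were Rbfox1, Cdh13, Ctnnd2, Celf2, Rora, Kcnma1, Nav2, Frmd4a, Ryr3, Rabgap1l, Fam155a, Pkhd1, Syne1, Lhfpl3, Ptprk and Dock1. Runs of intervals of the same mark were joined into blocks, and a change of mark along the gene was counted as a switch. Gaps of any length were joined, so a block also holds span without the mark. In Celf2 the H3K36me2 block of replicate 1 measured 463 kb, of which 187 kb was covered.

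In 13 of the 16 the gene was split into 2 blocks, with 1 switch in each replicate. Strand was known for 11 of these, and in all 11, in both replicates, H3K27me3 lay on the side of the start and H3K36me2 on the side of the far end. Both marks were also found in 26 genes from 200 to 500 kb and 125 genes under 200 kb by the same rule. Of these shorter genes, 117 had 1 switch in each replicate, so the split into 2 blocks was not particular to the long genes. Strand was known for 80 of the 117. H3K27me3 lay nearest the start in 63 and H3K36me2 in 17, so the order was also the more common one there. The border lay at a median of 56.8% and 56.2% of the span from the start, and ranged from 26.2% (Rora) to 90.7% (Frmd4a).

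Celf2 showed the arrangement on a large scale. Its H3K27me3 intervals ended 344 kb and 355 kb from the start, its H3K36me2 intervals began at 394 kb in both replicates, and coverage was 26.9% and 30.4% for H3K27me3 and 21.8% and 23.1% for H3K36me2. All 12 and 10 H3K4me3 intervals and all 17 and 18 H3K27ac intervals of the gene lay in the H3K36me2 block. The internal promoter printed above, with 43 CG in its 250 bases, was the one nearest the start to carry H3K4me3, at 524 kb. No H3K36me2 interval lay at this promoter in either replicate.

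Nav2 was divided closer to its start. H3K27me3 ended at 165 kb and 162 kb, H3K36me2 began at 233 kb and 278 kb, and the internal promoter with 36 CG lay at 287 kb, where the H3K4me3 interval nearest the start was centred at 288 kb in both replicates. Rora, the nuclear receptor ROR alpha of innate lymphoid and Th17 cells, had H3K27me3 up to 171 kb in both replicates, and its H3K36me2 began at 214 kb and 236 kb. It had 12 and 10 H3K4me3 intervals, the nearest to the start centred at 231 kb in both replicates, and none at the start end. Rbfox1, a neuronal splicing factor of 1528 kb, had H3K27me3 up to 744 kb and 746 kb and H3K36me2 from 809 kb and 808 kb.

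Active intervals were far denser in the H3K36me2 blocks than in the H3K27me3 blocks. Over the 13 genes the H3K27me3 blocks measured 4.61 Mb and 4.80 Mb and held 1 and 0 H3K4me3 intervals, while the H3K36me2 blocks measured 3.43 Mb and 3.44 Mb and held 69 and 57. For H3K27ac the counts were 4 and 3 against 115 and 102, or 0.868 and 0.625 against 33.5 and 29.7 per Mb. ATAC-seq had 0 and 0 against 42 and 47. A further 6 of 76 and 11 of 68 H3K4me3 intervals, and 9 of 128 and 16 of 121 H3K27ac intervals, had their centre between the blocks or beyond them. Frmd4a, a FERM domain scaffold protein, was the exception, with all 4 and 3 of the H3K27ac intervals found in H3K27me3 blocks. In the 11 genes with strand, the H3K4me3 interval nearest the start lay beyond the end of H3K27me3 in 21 of 22 gene and replicate combinations, the other being Frmd4a in replicate 1.

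**Figure D4:**
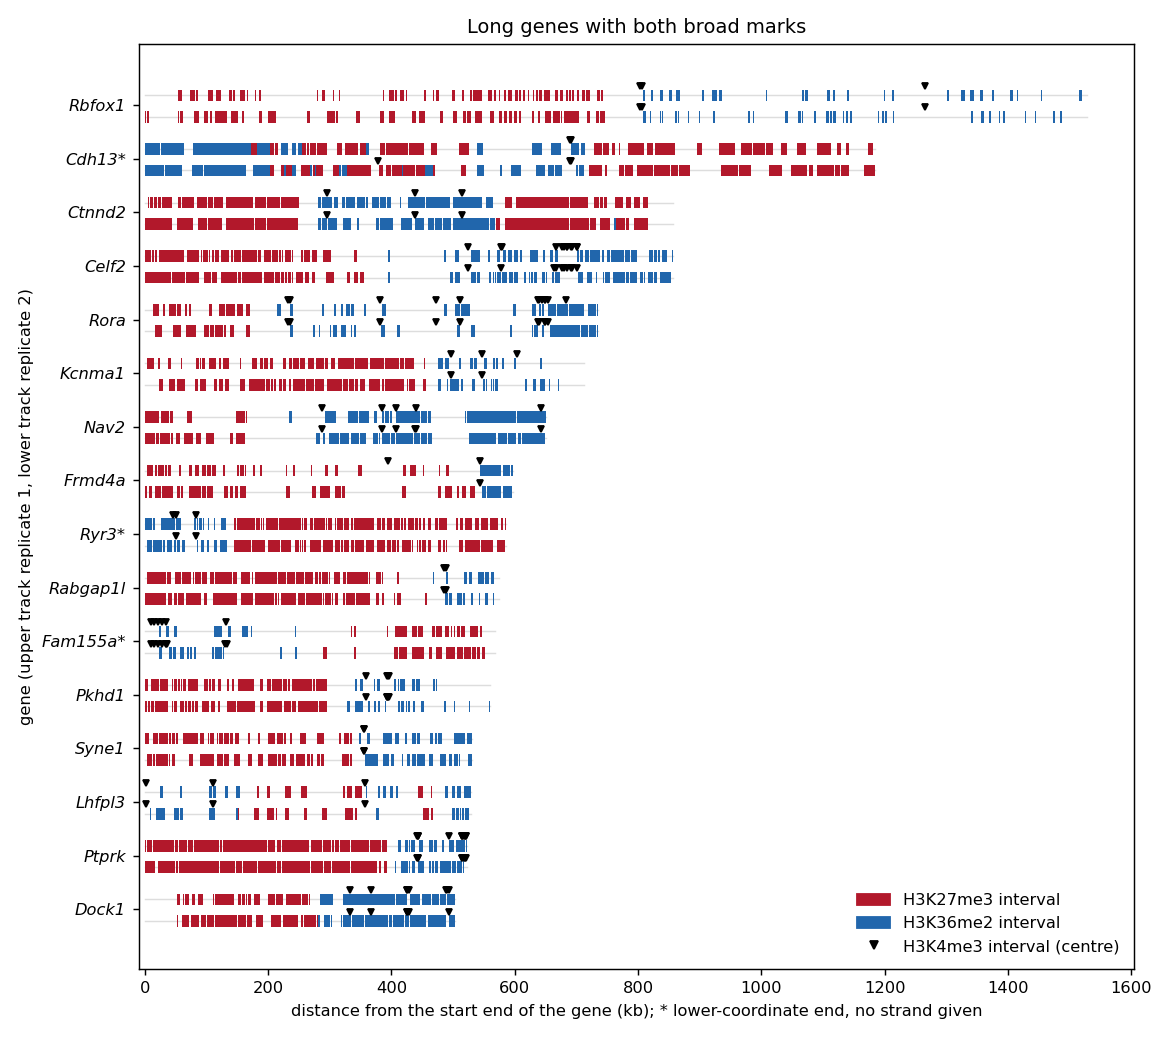
Intervals of H3K27me3 (red), H3K36me2 (blue) and H3K4me3 (triangles at interval centres) along the 16 genes with both broad marks, by distance in kb from the start end, with replicate 1 above replicate 2. In the 11 genes with strand and 1 switch red lies on the left and blue on the right. There the triangles lie beyond the end of red except for 1 in Frmd4a, and they need not sit on a blue interval.

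The remaining 3 genes had more switches. Cdh13, an adhesion protein of the cadherin family, had 11 and 15, with 38.4% and 43.3% H3K27me3 and 22.3% and 24.3% H3K36me2, and the marks overlapped at 5 and 9 of the switches. Ctnnd2, delta-catenin, had 2 and 6 switches, with H3K36me2 blocks between H3K27me3 blocks at both ends. Lhfpl3 had 4 in each replicate and was the only one of the 16 with H3K4me3 at the start end. Many switches also occurred with less coverage, since Pde4d had 14 and 17 with 3.38% and 4.30% H3K27me3.

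Averages along the genes depended on the alternating genes. In the 66 members with strand led by H3K27me3, H3K36me2 covered a mean of 0.668% and 0.797% of the 10% of the span nearest the start and 5.67% and 6.04% of the 10% nearest the far end, with a median of 0% at both. Without the 9 of these genes that had both marks, the means were 0.774% and 0.923% nearest the start and 0.952% and 1.08% nearest the far end. H3K27me3 itself covered 33.4% and 35.2% nearest the start and 26.2% and 30.2% nearest the far end, and without the 9 genes 28.5% and 29.5% nearest the start and 29.7% and 34.2% nearest the far end. In the 24 with strand led by H3K36me2, H3K27me3 covered a mean of 6.99% and 7.18% nearest the start, with a median of 0%, and 2.35% and 2.22% without the 2 alternating genes, Rora and Nav2.

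**Figure D5:**
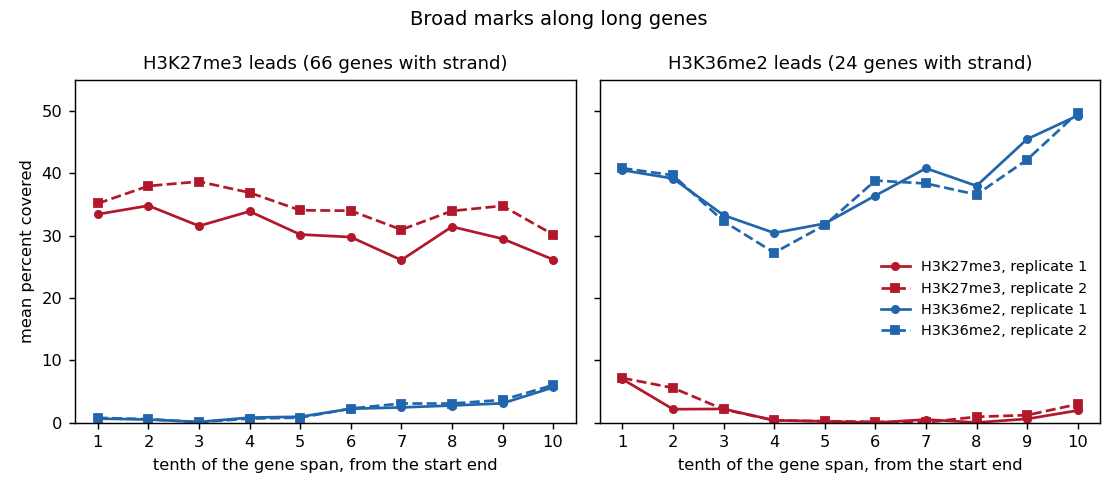
Mean percent covered by H3K27me3 (red) and H3K36me2 (blue) in 10 equal bins from the start end (bin 1) to the far end (bin 10), for members with strand led by H3K27me3 (left) and by H3K36me2 (right); solid and dashed lines are replicates 1 and 2. On the left H3K36me2 rises from under 1% to 5.67% and 6.04%, and on the right H3K27me3 is highest in bin 1; both patterns shrink without the 9 and 2 genes with both marks, to 0.952% and 1.08% H3K36me2 in bin 10 on the left and 2.35% and 2.22% H3K27me3 in bin 1 on the right.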

How the data were processed

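ChIP-seq and ATAC-seq intervals of 12 libraries, 2 replicates of each of 6 groups, were used. The authors aligned reads with STAR 2.5, used Picard against PCR duplicates, discarded reads that mapped to several loci and called intervals per replicate with MACS2 or, for the broad marks, Epic, per the labels and methods. The deposited values, of another kind than counts or signal, are start and end positions in bp, so neither depth nor precision per interval is known. The 3 samples without interval files (input and RNA-seq) were not used here.

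Overlapping intervals of a library were merged and intersected with RefSeq gene spans (GRCm38.p6) in Python 3.11.15 with numpy 2.4.6 and pandas 2.3.3. All 2592 gene by library values matched bedtools 2.31.1, and the functions were tested on simulated data. Strand came from the RefSeq promoter table for 169 of 216 members. Groups of 2 libraries were compared by a two-sided exact permutation test. Length classes shared their libraries, and an exact test with the replicate number as a block was run as well.

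Genes named were the 5 longest, the 5 highest for each broad mark, the alternating genes with most switches, the 5 with most H3K27ac intervals inside, the 5 longest without narrow intervals, 3 genes on each side of the limit and list members; others were chosen after their values were seen. Members and lists were chosen with earlier results of these data known. Alternatives covered replicates, length limits, interval joining and size, coverage minimums and windows.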

Additional observations from a re-analysis of the deposited data

How the results depend on the processing

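Of 105 recomputed values for 20 results, 23 moved by more than the replicate SD or, for counts, by more than 1.5 times. Only differences between groups have a direction, and 0 of them reversed. They were read by their sign alone, and blocking by replicate number leaves the difference itself unchanged. With 2 replicates, leaving 1 out cannot move a coverage or density by more than their SD. The excess of H3K27me3 over genes under 200 kb kept its sign but fell from 2.98 to 0.360 percentage points with genes of at least 1 Mb. With genes of at least 300 kb H3K27me3 covered 13.3% and H3K36me2 8.97%, and H3K36me2 led in 24.0% of genes. With genes of at least 1 Mb the coverages were 9.48% and 1.70%, and with intervals of at least 5 kb they were 8.79% and 3.99%. H3K36me2 coverage was 5.61% with intervals within 1000 bp joined and 5.47% without span shared with another gene. H3K27me3 led in 49 members at a minimum of 20% and in 63 with intervals of at least 5 kb, 65 or 137 members were low in both at a minimum of 1% or 20%, and 33 or 10 members had both marks at a minimum of 1% or 10%, 11 with intervals of at least 5 kb and from 16 to 20 with 1 replicate left out. Inside the genes, merged peaks gave 2.12 (H3K4me3), 2.40 (H3K9ac) and 1.91 (ATAC-seq) per Mb, and intervals of at least 500 bp gave 1.23, 1.09, 1.92 (H3K27ac) and 0.259 (ATAC-seq). Leaving out peaks at the ends of other genes gave 1.86 (H3K4me3) and 2.10 (H3K9ac), and counting shared intervals once, a choice made after seeing the data as was leaving alternating genes out of the averages along genes, gave 1.92 and 2.17.

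With the replicate number as a block, the difference between the broad marks stayed at 6.60 percentage points and p was 0.5, the smallest that 2 pairs allow in an exact test. The replicates share only a number. Depth and interval height are unknown. Reads that mapped to several loci had been discarded by the authors, so repeats inside long genes may lack intervals, and the part of this in the coverage was not tested. With 2 libraries a group, no test could reach 0.05.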
